A study of Mus musculus with 4 samples.

Results

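The genes described here encode 9 sperm membrane or secreted proteins tied to the fusion of sperm and egg. They are the Izumo family (Izumo1, Izumo2, Izumo3 and Izumo4), Spaca6, Tmem95, Tmem81, Dcst1 and Dcst2. They were chosen by name from the 22274 genes of a table of read counts in mouse testis. The deposited symbol matched letter for letter for 8 of them, and Dcst2, which the table writes in capitals as DCST2, was taken by its Ensembl identifier ENSMUSG00000109293. All 9 passed the filter on low counts, which 15636 genes passed in all.

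Poly(A) RNA was sequenced from testes of adult Fam170a knockout mice (KO, 2 libraries) and from wild-type mice (WT, 2 libraries). The series studies Fam170a for a part in spermiogenesis, the remodelling of round spermatids into sperm. Strain, age beyond adult, the deleted part of the gene and the number of animals behind a library are not stated in the labels. A p-value here therefore reflects the spread among these libraries alone, and that spread may be technical. The genotype label of KO replicate 2 reads Fam171a, whereas its title places it with the knockouts. Fam170a had 1 count in KO replicate 1 and 1 count in KO replicate 2, against 2240 and 3510 counts in WT replicates 1 and 2. Libraries held 34740160 and 41684437 counts in KO and 26029374 and 35494303 in WT.

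Mammalian fertilisation ends with the merging of the sperm and egg membranes over the part of the sperm head that is uncovered when the acrosome, the secretory vesicle at its tip, opens. IZUMO1 on the sperm binds the receptor JUNO (encoded by Izumo1r) on the egg. Sperm of mice that lack Izumo1, Spaca6, Tmem95, Dcst1 or Dcst2 reach the egg and bind it but do not fuse with it. SPACA6 and TMEM81 are known to form a complex with IZUMO1. The transcripts are made in the testis while germ cells develop, so testis RNA shows the supply of message and not the amount of protein on mature sperm. In RNA from whole testis, fewer cells of a type and less RNA per cell cannot be told apart.

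The stretches before the start sites are shown for those genes whose stretch holds the motif of a known spermatid activator or is shared with a neighbouring member. Sequences and start sites are those of RefSeq on GRCm38.p6, and 8 of the 9 genes had one in that set, with Izumo4 the exception. CREM, the activator of many genes expressed after meiosis, binds the cAMP response element (CRE), whose full form reads TGACGTCA and whose short form reads TGACG. Both forms were searched on both strands in the 250 bases before each start. Each full form contains a short form on either strand, so the counts overlap. The full form was present in 1 of the 8 windows, that of Izumo1, and in 1.55% of 32851 windows of the same length over all genes. A short form was present in 2 of the 8, Izumo1 and Tmem95, and in 17.8% of all windows. The match in Izumo1 began 96 bases before the start and that in Tmem95 began 208 bases before it. Dcst1 and Dcst2 are transcribed away from each other, and their RefSeq start sites lie 66 bases apart, so that 65 bases belong to both windows. GENCODE M21, used below for positions and lengths, instead starts Dcst2 at chr3:89361975, inside Dcst1. In the sequences below, written 5′ to 3′ on the transcribed strand, capitals mark the CRE letters. The bases between the RefSeq start sites of Dcst1 and Dcst2 are written on the forward strand and hold no such match. A match describes the letters and shows neither binding nor its effect.
Izumo1, chr7:45621561-45621810, forward strand: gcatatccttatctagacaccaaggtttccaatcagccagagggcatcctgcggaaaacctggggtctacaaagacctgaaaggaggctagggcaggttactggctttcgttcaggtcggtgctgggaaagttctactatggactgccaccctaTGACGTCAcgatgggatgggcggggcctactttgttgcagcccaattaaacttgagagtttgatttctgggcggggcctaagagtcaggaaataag
Tmem95, chr11:69878056-69878305, reverse strand: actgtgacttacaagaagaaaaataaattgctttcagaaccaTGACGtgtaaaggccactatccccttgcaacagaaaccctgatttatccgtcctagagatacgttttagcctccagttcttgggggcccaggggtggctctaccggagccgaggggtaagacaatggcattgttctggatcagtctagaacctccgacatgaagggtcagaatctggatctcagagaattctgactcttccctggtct
Dcst1 and Dcst2, chr3:89365254-89365318, forward strand: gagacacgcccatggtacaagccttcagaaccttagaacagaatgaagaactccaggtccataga

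Levels of all 9 genes were slightly higher in KO than in WT libraries, and none of the differences passed the test. Mean levels in KO lay 8.98% (Tmem81) to 20.7% (Izumo1) above those in WT by the fitted fold changes. With edgeR's quasi-likelihood test across all 15636 genes, 0 of the 9 were called at an adjusted p under 0.05, against 0.454% of all genes called higher and 0.454% called lower. At an unadjusted p under 0.05, 2 of the 9 were higher in KO and 0 lower, where 11.8% of all genes were higher. DESeq2 and limma-voom also called 0 of the 9, where they called 3.04% and 0.454% of all genes higher. At an unadjusted p under 0.05 they gave 0 and 3 of the 9, beside 8.09% and 12.3% of all genes higher. Here and below, shares of all genes called by DESeq2 are over the 12604 genes with a DESeq2 adjusted p. Both KO libraries lay above both WT libraries for 8 of the 9 genes, an ordering that 29.4% of all tested genes had, and 0 of the 9 had both KO libraries below both WT libraries, as 27.9% of all genes did. The median log2 fold change of the 9 was 0.21, beside 0.01 over all tested genes. All 9 fold changes were positive under each of the 14 fits that were run, although scaling by total counts, which placed the median of all genes at -0.10, brought the median of the 9 to 0.10. Without WT replicate 1, Dcst1 alone was called, with 0.26 on the log2 scale and an edgeR adjusted p of 0.0474, in a fit that called 8.53% of all genes higher.

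**Figure D1:**
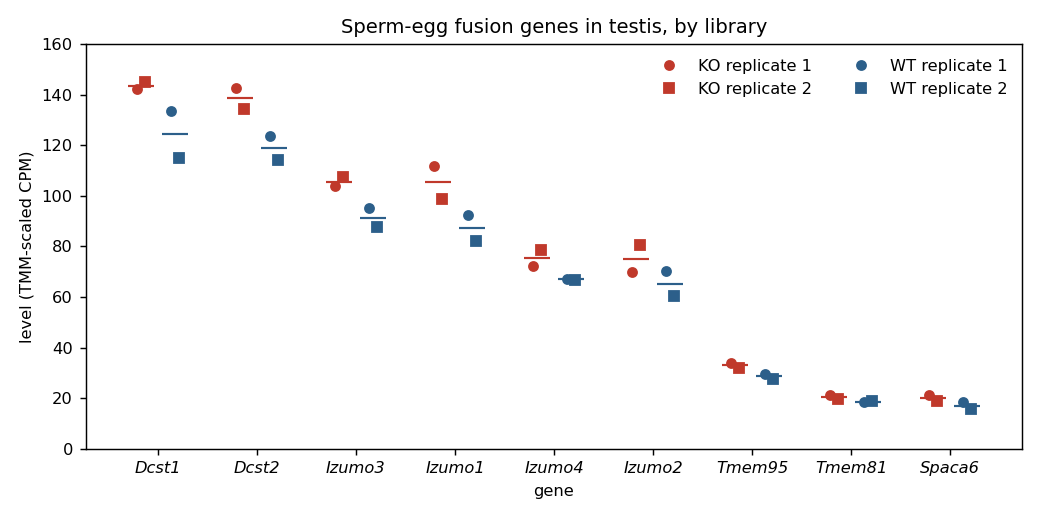
Level of each fusion gene in CPM (read counts divided by the TMM-adjusted library size) in each library, with KO libraries left of WT libraries, circles for replicate 1, squares for replicate 2 and a line at the mean of each genotype. KO points lie above WT points for every gene but Izumo2, where KO replicate 1 at 69.8 CPM lies just under WT replicate 1 at 70.1 CPM.

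Izumo1, the sperm ligand of JUNO, showed the largest fitted difference of the 9, although without KO replicate 1 it was in place 6, at 0.18 on the log2 scale, and Izumo2 was largest, at 0.30. Izumo1 was at 112 and 98.7 CPM in KO replicates 1 and 2, against 92.4 and 82.1 CPM in WT replicates 1 and 2. The genotypes did not overlap, by a margin of 6.24 CPM between the lower KO and the higher WT library. Means were 105 ± 9.33 CPM in KO and 87.2 ± 7.32 CPM in WT (SD, n = 2 each), and the log2 fold change of 0.27 ± 0.11 (SE) had an edgeR adjusted p of 0.195. Izumo1 (ENSMUSG00000064158) lies on the forward strand at chr7:45621811-45628823 in GRCm38 as annotated by GENCODE M21. The labels name no build. Its end overlaps Rasip1, a gene for a regulator of blood vessel formation, on the same strand, and 654 bases of exon, 21.9% of the exon length of Izumo1, belong to both. Rasip1 was at 3.65 and 3.50 CPM in KO and at 2.65 and 2.15 CPM in WT. How reads from the shared exons were assigned is not known here.

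The partners of IZUMO1 in its complex were the least abundant of the 9 per length. Spaca6 was at 21.1 and 18.8 CPM in KO replicates 1 and 2, against 18.4 and 15.6 CPM in WT replicates 1 and 2. Its genotypes were separated by only 0.325 CPM, and the log2 fold change of 0.23 ± 0.14 (SE) had an edgeR adjusted p of 0.347. Spaca6 lies at chr17:17827158-17843009, its introns and exons hold a cluster of microRNA genes, and 16 transcripts are annotated for it. Tmem81 was at 21.1 and 19.6 CPM in KO and at 18.4 and 19.0 CPM in WT. Its KO and WT libraries were 0.665 CPM apart, and the log2 fold change of 0.12 ± 0.11 (SE; edgeR adjusted p = 0.524) was the smallest of the 9. Tmem81, at chr1:132506230-132508639, overlaps no other annotated gene.

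Izumo1 was the most abundant of the complex members in every library. Per kb of the transcript with the longest coding sequence, Izumo1 was 3.81 and 3.78 times as abundant as Spaca6 in KO replicates 1 and 2, against 3.60 and 3.77 times in WT replicates 1 and 2. Izumo1 over Tmem81 gave 6.23 and 5.89 in KO, against 5.90 and 5.07 in WT. The first ratio was lowest in WT replicate 1 and the second in WT replicate 2. The size of each ratio depends on the lengths used, and its variation over libraries does not.

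Tmem95, which encodes a small membrane protein of the sperm head needed for fusion, was at 33.9 and 32.1 CPM in KO and at 29.7 and 27.5 CPM in WT. The genotypes did not overlap, with 0.21 ± 0.10 (SE) as its log2 fold change and an edgeR adjusted p of 0.272. Tmem95 lies at chr11:69876684-69878018 on the reverse strand, with a single annotated transcript of 531 bases.

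The paired genes Dcst1 and Dcst2 drew the most reads of the 9, without regard to length. Both encode membrane proteins with several membrane-spanning segments, related to the fly fertilisation gene sneaky. Dcst1 was at 142 and 145 CPM in KO replicates 1 and 2, against 134 and 115 CPM in WT replicates 1 and 2. Dcst2 was at 143 and 134 CPM in KO, against 124 and 114 CPM in WT. For both genes each KO library was above each WT library. Log2 fold changes were 0.21 ± 0.10 for Dcst1 and 0.22 ± 0.09 for Dcst2 (SE), with edgeR adjusted p of 0.255 and 0.192. The ratio of Dcst1 to Dcst2 counts was 0.997 and 1.08 in KO and 1.08 and 1.01 in WT, without a split by genotype. In GENCODE M21, Dcst1 (chr3:89350219-89365253, reverse strand) and Dcst2 (chr3:89361975-89377549, forward strand) overlap over 3279 bases but share 0 bases of exon. Dcst1 also shares 1268 bases of exon with the pseudogene Gm10702 on the other strand. Whether counting used strand is not given, so the level of Dcst1 is uncertain to that extent.

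The other Izumo genes gave similar values. Izumo3, which mouse spermatids need to form the acrosome, was at 104 and 107 CPM in KO replicates 1 and 2, against 95.1 and 87.6 CPM in WT replicates 1 and 2. The genotypes did not overlap, with 0.21 ± 0.09 (SE) as its log2 fold change and an edgeR adjusted p of 0.209. Izumo4, whose protein lacks a membrane anchor, was at 72.4 and 78.4 CPM in KO, against 67.3 and 66.8 CPM in WT. Its WT libraries agreed more closely than its KO libraries, with 0.17 ± 0.09 (SE) as its log2 fold change and an edgeR adjusted p of 0.289. Izumo2, a family member with no settled role in fusion, was at 69.8 and 80.4 CPM in KO, against 70.1 and 60.3 CPM in WT. It was the single gene of the 9 whose genotypes overlapped, and its log2 fold change of 0.20 ± 0.12 (SE) had an edgeR adjusted p of 0.341. Izumo2 lies on chromosome 7 with Izumo1, Izumo3 on chromosome 4 and Izumo4 on chromosome 10, and these 3 genes overlap no other annotated gene. Summed over the 4 Izumo genes, levels were 358 and 365 CPM in KO and 325 and 297 CPM in WT.

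With all 4 libraries, the intervals of the fold changes stayed within 1.5-fold, and this limit did not hold when a KO library was left out. The 95% intervals ran from -0.15 at the lowest bound (Tmem81) to 0.57 at the highest (Spaca6) on the log2 scale. A change of 1.5-fold in either direction lay outside the interval of each of the 9 genes. It lay outside for 3 of the 9 without KO replicate 1, 4 without KO replicate 2, 8 without WT replicate 1 and 9 without WT replicate 2, with the highest bound, 0.80, for Spaca6 without KO replicate 2. With the replicate number as a block it lay outside for 8 of the 9, Spaca6 being the exception at 0.59. For 2 of them, Izumo1 and Dcst2, the interval lay just above 0 before any adjustment for the number of genes tested. Counts per gene and library ran from 478 to 5672.

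**Figure D2:**
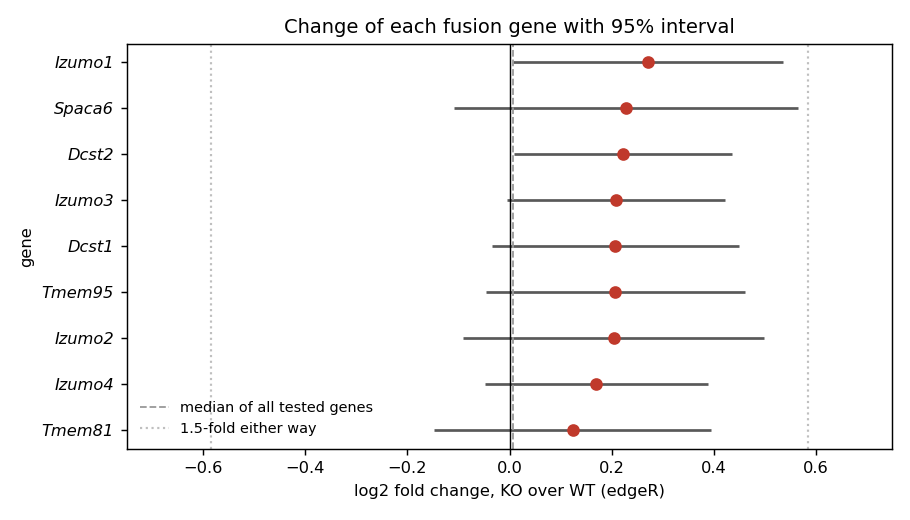
Fitted log2 fold change of each fusion gene, KO over WT, with its 95% interval from the edgeR fit and dotted lines at 1.5-fold in either direction. All 9 points lie between 0.12 and 0.27, to the right of the dashed median of all tested genes at 0.01, and no interval reaches a dotted line.

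The spread between libraries of a genotype was smaller than the genotype difference for most of the 9 genes, but not for all. WT replicate 2 was the lowest of the 4 libraries for 8 of the 9 genes, Tmem81 being the exception. The median log2 ratio of WT replicate 2 to WT replicate 1 was -0.12 over the 9 genes, beside 0.01 over all tested genes. Between KO replicates 2 and 1 it was -0.08 over the 9 genes and 0.01 over all. The genotype difference was larger than the larger of the gaps within a genotype for 6 of the 9 genes. It was smaller for Izumo2, Spaca6 and Dcst1. The share of all tested genes with such a difference, or with WT replicate 2 lowest, was not computed. Neither count can therefore be set against a background.

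Levels between genes were compared per kb of the transcript with the longest coding sequence, a length chosen after the values were seen because several of these genes have long annotated extensions. Izumo2 was the most abundant on that scale, at 110 and 127 CPM per kb in KO and 111 and 95.4 in WT. Izumo3 followed at 82.8 and 85.7 in KO and 75.9 and 70.0 in WT. Izumo1, Izumo4, Tmem95, Dcst1 and Dcst2 followed with means of 64.5, 59.6, 58.0, 57.2 and 56.3 CPM per kb over the 4 libraries. Izumo3 was above Izumo1 in each of the 4 libraries, although their ranges over libraries overlapped. Izumo1 over Izumo4 and Izumo4 over Tmem95 held in 3 of 4 libraries, and Tmem95 over Dcst1 and Dcst1 over Dcst2 in 2 of 4, so that the order from Izumo1 to Dcst2 was not settled. Spaca6, with a mean of 17.2 CPM per kb, and Tmem81, with 11.1, stood below the rest and apart from each other. Per kb of all annotated exons the same pair was lowest, but Tmem81 at 9.67 was then above Spaca6 at 2.62, and Izumo1 stood at 32.2 and Izumo4 at 25.4.

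**Figure D3:**
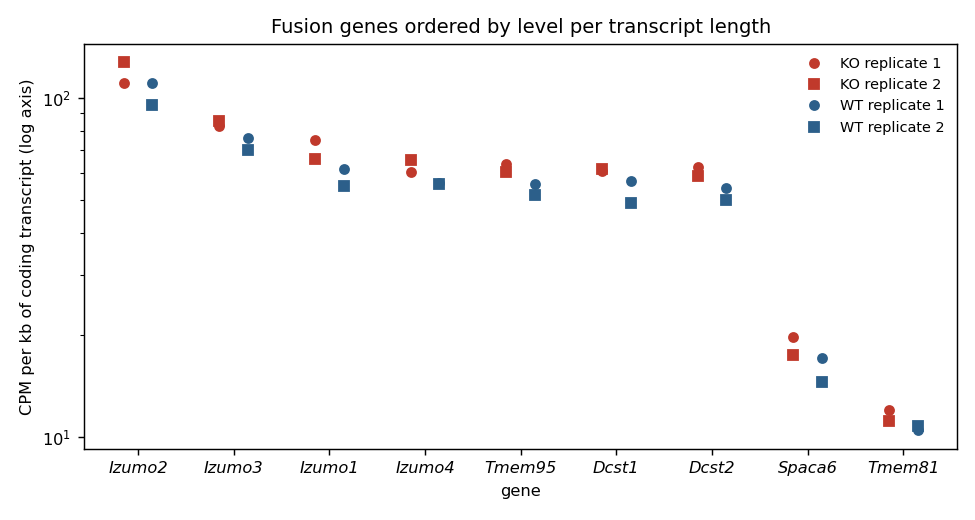
Level of each fusion gene in CPM per kb of the transcript with the longest coding sequence, on a log axis, with KO libraries in red left of WT libraries in blue. From Izumo1 to Dcst2 the points run together between 49.2 and 74.9 CPM per kb, and Spaca6 and Tmem81 lie below 20 CPM per kb in all 4 libraries.

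Other genes of sperm tied to fusion gave a mixed picture. The list held 7 genes, among them Eqtn and Spesp1, which encode acrosomal proteins of the equatorial segment, Llcfc1 (also called Sof1) and 4930451I11Rik (also called Fimp), both needed for fusion in mice. With edgeR, 0 of the 7 were called, beside 0.454% of all genes called higher and 0.454% called lower. Of the 7, 2 had an unadjusted p under 0.05, both higher in KO, as did 11.8% of all genes in that direction. DESeq2 called 1 of the 7 higher, beside 3.04% of all genes, and limma-voom 0. The median of the 7 log2 fold changes was 0.18, beside 0.01 over all genes, and 6 of 7 were positive, or 4 of 7 with scaling by total counts. The median was -0.05 without WT replicate 2, with 3 of 7 positive and 1 called lower, as 3.01% of all genes were in that fit. Without WT replicate 1 it was 0.27 with 3 called higher, as were 8.53% of all genes. Spesp1 was at 640 and 656 CPM in KO, against 517 and 516 CPM in WT (edgeR adjusted p = 0.0986). Llcfc1 was at 200 and 216 CPM in KO, against 185 and 135 CPM in WT. 4930451I11Rik was far lower, at 7.03 and 9.80 CPM in KO and 9.83 and 7.74 CPM in WT, with overlapping genotypes. The fusion receptor on the egg, Izumo1r, had 0 counts in all 4 libraries, and 3 counts would have given 0.0875 and 0.0766 CPM in KO and 0.115 and 0.0785 CPM in WT. Cd9, which eggs need for fusion and other cells also express, was at 3.03 and 1.89 CPM in KO and 2.996 and 3.19 CPM in WT. Cd81, also listed with the egg side, was at 2.54 and 3.04 CPM in KO and 4.84 and 3.48 CPM in WT (log2 fold change -0.57; edgeR adjusted p = 0.222). Its KO libraries both lay below its WT libraries, as for 27.9% of all genes.

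Genes of the acrosome and of zona binding were mostly higher in KO, and 1 of them passed the test. Of 11 such genes 1 was called higher by edgeR, Spaca7, which encodes an acrosomal protein, and 0 were called lower. Of all genes 0.454% were called higher and another 0.454% lower. At an unadjusted p under 0.05, 10 of the 11 were higher in KO, beside 11.8% of all genes. DESeq2 called 4 of the 11 higher, beside 3.04% of all genes, and limma-voom 1, beside 0.454%. Their median log2 fold change was 0.31 and all 11 were positive, or 10 of 11 with scaling by total counts, where 0 were called, beside 0.205% of all genes higher. Spaca7 was at 155 and 170 CPM in KO, against 99.7 and 99.0 CPM in WT (log2 fold change 0.71 ± 0.08 SE; edgeR adjusted p = 0.0341). With the replicate number as a block Spaca7 was no longer called (log2 fold change 0.71; edgeR adjusted p = 0.187), in a fit that called 0.0384% of all genes higher. Without either KO replicate 0 of the 11 were called, beside 0.0809% of all genes higher in each of those fits. Without WT replicates 1 and 2, 6 and 5 were called higher, beside 8.53% and 2.45% of all genes. Whether the fusion genes differed from this list was not tested.

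Summed over the 9 fusion genes, levels were 719 and 715 CPM in KO replicates 1 and 2, against 649 and 588 CPM in WT replicates 1 and 2. A list of 6 round spermatid markers, Acrv1, Tssk1, Tex36, Crem, Spaca1 and Catsper3, summed to 1555 and 1582 CPM in KO and to 1364 and 1286 CPM in WT. Both sums were higher in each KO library than in each WT library, and WT replicate 2 was lowest in both. The ratio of the fusion sum to the round spermatid sum was 0.462 and 0.452 in KO, against 0.475 and 0.457 in WT, and its range in KO overlapped that in WT. All 6 of these markers had positive fold changes, as did 7945 of all 15636 tested genes. By edgeR 0 were called, beside 0.454% of all genes higher. At an unadjusted p under 0.05, 4 were higher in KO, beside 11.8% of all genes. By DESeq2 1 was called higher, beside 3.04% of all genes, and by limma-voom 0. Without WT replicates 1 and 2 edgeR called 2 and 1 higher, beside 8.53% and 2.45% of all genes. Against the summed acrosome and zona genes, which share Spaca1 with the markers, the ratio was 0.239 and 0.231 in KO and 0.259 and 0.240 in WT, so that both KO libraries lay below both WT libraries by a small margin. These ratios were formed after the values were seen and the part of round spermatid content in the differences was not tested.

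Other germ cell markers ran differently across the libraries. The 6 spermatocyte markers summed to 597 and 553 CPM in KO and to 778 and 976 CPM in WT. Of their 6 fold changes 5 were negative. By edgeR 1 of the 6 was called lower, Piwil1, beside 0.454% of all genes. At an unadjusted p under 0.05, 4 were lower, beside 12.8% of all genes. With the replicate number as a block 0 of the 6 were called, beside 0.0192% of all genes lower. DESeq2 called 4 lower, beside 4.98% of all genes, and edgeR called 4 lower without WT replicate 1 and 2 without WT replicate 2, beside 12.6% and 3.01% of all genes. The 7 elongating spermatid markers, protamines and transition proteins among them, summed to 4811 and 7581 CPM in KO and to 10046 and 3695 CPM in WT. WT replicate 1 was highest and WT replicate 2 lowest in that sum, whereas the fusion sum was highest in the KO libraries. With all 4 libraries none of the 7 was called by edgeR, DESeq2 or limma-voom, and 0 had an unadjusted p under 0.05. The WT library used set the direction of this list, with 5 of 7 called higher without WT replicate 1, beside 8.53% of all genes, and 4 of 7 called lower without WT replicate 2, beside 3.01% of all genes. The 6 spermatogonial markers summed to 51.6 and 48.3 CPM in KO and 59.5 and 75.6 CPM in WT, with 0 called by edgeR and 2 lower at an unadjusted p under 0.05, beside 12.8% of all genes. DESeq2 called 1 of them lower, and 4 were called lower by edgeR without WT replicate 1, beside 12.6% of all genes. Sertoli markers summed to 4.61 and 5.44 CPM in KO and 11.4 and 6.04 CPM in WT, Leydig markers to 6.33 and 5.11 CPM in KO and 14.6 and 8.66 CPM in WT, and macrophage markers to 16.9 and 10.1 CPM in KO and 10.7 and 3.71 CPM in WT. Of these 3 lists 0 genes were called by edgeR with genotype as the only term and all 4 libraries. DESeq2 called 1 Leydig marker lower, edgeR without WT replicate 2 called 1 Sertoli and 2 Leydig markers lower, and edgeR without WT replicate 1 called 2 macrophage markers higher, beside the shares of all genes given above. The 2 peritubular muscle markers, Acta2 and Myh11, summed to 7.91 and 9.78 CPM in KO and 12.3 and 15.5 CPM in WT. With all 4 libraries and genotype as the only term, edgeR called 0 of the 2. Both were lower at an unadjusted p under 0.05, beside 12.8% of all genes. Their median log2 fold change by edgeR was -0.65. It was -0.86 and -0.48 without WT replicates 1 and 2, and -0.50 and -0.83 without KO replicates 1 and 2. Of the 4 markers of epididymal epithelium, Lcn5 and Lcn8 had 0 counts in all 4 libraries and the summed level was at most 0.306 CPM. The part of these cell types in the differences was not tested.

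**Figure D4:**
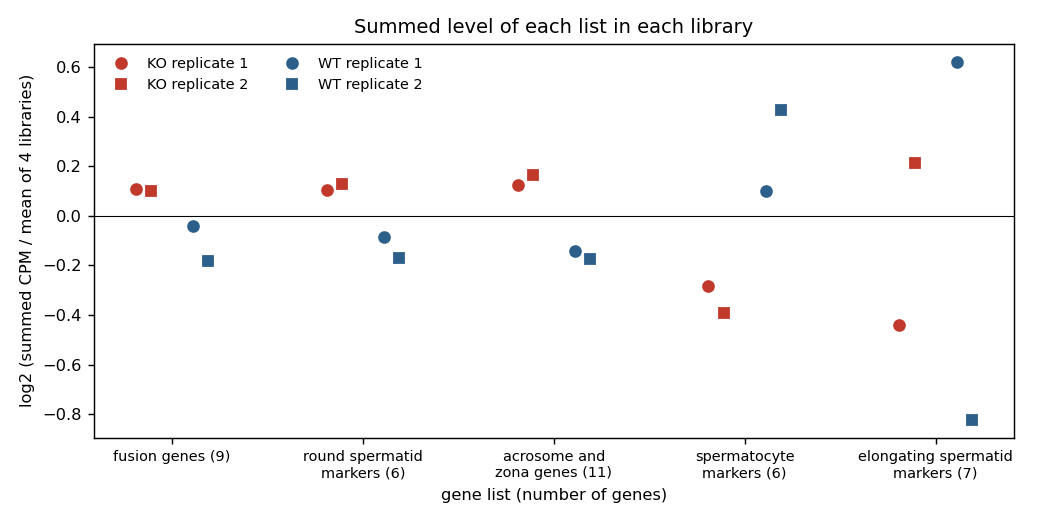
Summed CPM of each gene list in each library, as log2 of its ratio to the mean of the 4 libraries, with KO libraries in red left of WT libraries in blue. The fusion genes, round spermatid markers and acrosome genes (Spaca1 is in both of these) place both KO libraries above both WT libraries by a small margin, whereas elongating spermatid markers differ most between the WT libraries.

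The pattern of Izumo1 over the 4 libraries was closest to that of Sun5, by the Euclidean distance between log2 levels centred on each gene's own mean (0.0171, smallest of 12216 genes at 1 CPM or more, predicted, Rik and clone names left out). Foxo4, Cib4, P4htm and Klf5 came next with distances of 0.0338 to 0.0454. Of the other fusion genes Spaca6 was the nearest, at a distance of 0.0626 and place 17, followed by Dcst2 at place 61 and Tmem95 at place 99. Izumo2 was the farthest, at a distance of 0.282 and place 2906. These places rest on 4 libraries and are a description.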

How the data were processed

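Per the labels' protocols, Trizol extraction from adult testes was followed by capture of poly(A) RNA on beads and PCR amplification of full-length cDNA. RSEM, StringTie 1.3.1, HISAT2 2.1.0, Bowtie2 2.2.8 and fastp 0.18.0 are named in the submitters' processing notes, with no role or order. The build, annotation, strand setting and treatment of multiply matching reads are not given in the sources consulted. The deposited values are whole-number read counts for 22274 genes, not normalized by the authors as far as the values show. Table columns and samples were paired by genotype name and number. GENCODE M21 matched 22219 identifiers.

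The test was that of edgeR 4.0.16 under R 4.3.3 (quasi-likelihood, two-sided, genotype as the only term, TMM factors of 0.987 and 0.940 for KO and 1.00 and 1.08 for WT). The filter filterByExpr (at least 10 counts per library scaled by depth, at least 15 in total) left 15636 genes, and Benjamini-Hochberg adjustment ran over all of them with a threshold of 0.05. The fit was tested on simulated data. An SE is the log2 fold change divided by the square root of its F statistic. A count of 0 was set against a floor of 3 counts, which covers counting error only. The genes and lists were chosen with earlier results of these data known. Named genes were the 9 fusion genes, Fam170a, list members, genes that overlap or flank a fusion gene, and the 5 genes nearest to Izumo1. Replicates differed beyond counting noise, with a chi-square per degree of freedom of 9.99 in KO and 42.5 in WT. Alternatives were other scaling factors, filters, DESeq2 1.42.0, limma-voom (limma 3.58.1), leaving out each library, blocking on the replicate number, and a threshold of 0.01.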

Additional observations from a re-analysis of the deposited data

How the results depend on the processing

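The number of fusion genes called stayed at 0 in every setting run except without WT replicate 1, where it was 1, so that it ranged from 0 to 1 over the fits that left out a library. Of 108 values of single fusion genes under the alternatives, 107 kept their sign and their side of the threshold, 1 passed it (Dcst1 without WT replicate 1) and 0 changed sign. Their log2 fold changes ran from 0.01 to 0.36. The median of the 9 moved to 0.10 with scaling by total counts, where the median of all genes was -0.10 and the gap between both was kept, and it ran from 0.14 to 0.22 over the fits that left out a library. The number of all genes called was 142, and moved to 82 with total counts, 451 without a filter, 1011 with DESeq2, 18 at a threshold of 0.01, and between 21 and 3408 when a library was left out, a fit that assumes that the lone library varies like the other genotype's pair. With a block on the replicate number 0 fusion genes and 9 of all genes were called. No label says that a number marks a shared litter or day, and deviations of same-numbered libraries correlated at -0.24 across genes. With the numbers crossed, a setting added after seeing the data, 0 fusion genes and 902 of all genes were called. Differences of this size were not told apart from the spread between libraries in this fit.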

Other observations

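Genes that flank the fusion genes differed in direction among themselves. Mob3a, 207 bases before Izumo4, was at 4.99 and 3.65 CPM in KO and at 7.03 and 8.06 CPM in WT (log2 fold change -0.81; edgeR adjusted p = 0.113). Rbbp5, 571 bases before Tmem81, was at 7.53 and 6.54 CPM in KO and at 9.22 and 12.3 CPM in WT (log2 fold change -0.62; edgeR adjusted p = 0.135). Adam15, 223 bases from the end of Dcst1, was at 23.5 and 15.9 CPM in KO and at 13.5 and 12.6 CPM in WT (log2 fold change 0.59; edgeR adjusted p = 0.158). Ap3d1, which follows Izumo4, was at 428 and 427 CPM in KO and at 398 and 341 CPM in WT (log2 fold change 0.21; edgeR adjusted p = 0.245). None of these flanking genes passed the test, and Rasip1, which overlaps Izumo1, did not either (log2 fold change 0.58; edgeR adjusted p = 0.179).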
